A study of Mus musculus with 10 samples.

Results

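The 8 genes described here are 4 Krüppel-like transcription factors, Klf2, Klf4, Klf6 and Klf10, and 4 genes of endothelium that respond to blood flow, Nos3, Thbd, Edn1 and S1pr1. They were chosen by name, and all 8 were found among the 28454 gene symbols measured. Expression was measured by sequencing total RNA of CD31-positive cells sorted from B16F10 tumours, a transplanted mouse melanoma, after depletion of CD11b-positive myeloid cells. In 6 libraries the tumours had grown in adult mice of the label Shbflox/flox/Cdh5-CreERt2, in which the adaptor gene Shb is inactivated in endothelium. In 4 libraries the hosts were adult mice of the label Cdh5-CreERt2, called wild type by the submitters. All 10 hosts thus carried the inducible Cre under the promoter of Cdh5, a gene active in endothelium, and the floxed Shb allele marks the inactivated group. The tissue label of every library reads tumours, while the source label also names lungs, and the tissue label and titles were followed here. The series text gives 6 and 4 mice, so the libraries are taken as separate mice. Tumour cells were not the target of the deletion. The labels do not say how Cre was induced or which part of Shb is removed.

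Flowing blood drags on the endothelial surface, and a steady flow switches on Klf2 and Klf4 through the kinase cascade of MEKK3, MEK5 and ERK5 and the MEF2 factors. These 2 factors raise Nos3, whose product makes the vasodilator nitric oxide, and Thbd, which encodes the anticoagulant thrombomodulin, and they lower Edn1, which encodes the vasoconstrictor endothelin. Tumour vessels have slow and irregular flow. Klf6 and Klf10 belong to the same zinc-finger family, and both, like Fos, are genes that cells switch on quickly after stimulation.

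Shb was 0.37, 0.915 and 1.44 FPKM (lowest, median and highest of 6) in the Shb-inactivated libraries, against 5.44, 3.27, 2.78 and 3.24 FPKM in wild-type replicates 1 to 4. FPKM scale fragments to transcript length and to the mapped total of a library, so levels are per length and can be set beside each other between genes. The libraries did not overlap in Shb, although a value for the whole gene includes any exon left outside the deletion. Wild-type replicate 1, with the most Shb, also had the highest mean log2 level of 10 melanoma markers, 6.12. With that mean level as a covariate the log2 difference in Shb, Shb-inactivated minus wild-type, was -0.98 (SE 0.18), against -1.27 (SE 0.21) without it. The part of tumour cells in the Shb level was not tested. The sort marker Pecam1, encoding CD31, ran from 873 to 1237 FPKM in Shb-inactivated libraries and from 569 to 864 FPKM in wild-type libraries. FPKM keep no read totals, so sequencing depth is unknown. Shb-inactivated replicates 3 and 4 and wild-type replicate 3 stood apart by myeloid transcripts. Lyz2, a lysozyme of myeloid cells, was 1577 to 2944 FPKM in these 3 libraries and 16.9 to 292 FPKM in the other 7. Itgam, encoding the depleted CD11b, was 29.3 to 109 FPKM against 0.20 to 5.85 FPKM. Results that rest on these libraries are given with and without them.

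S1pr1 and Klf6 were the most abundant of the 8 genes. In Shb-inactivated libraries the mean level was 309 ± 53.4 FPKM for S1pr1 and 181 ± 55.0 FPKM for Klf6 (SD, n = 6), and in wild-type libraries 218 ± 30.8 and 138 ± 84.1 FPKM (SD, n = 4). Every Shb-inactivated library had more S1pr1 than Klf6, as did 3 of 4 wild-type libraries. Thbd, Nos3, Edn1 and Klf10 lay between 37.1 and 58.7 FPKM in Shb-inactivated libraries and between 30.1 and 41.5 FPKM in wild-type libraries. Neighbours in that middle order differed by less than their spread. Klf2 and Klf4 had the lowest means, and they did not differ from each other beyond their spread in either group. In wild-type libraries the gap from Edn1, at 30.1 ± 10.3 FPKM, to Klf2, at 20.1 ± 8.39 FPKM, was not beyond the spread either. In wild-type replicate 3 Klf2 and Klf4, at 32.5 and 32.6 FPKM, lay above Nos3 and Edn1, at 28.9 and 15.5 FPKM.

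All 8 fold changes were above 0, and no gene passed the test across all genes. A fold change here is the mean log2(FPKM + 1) of the Shb-inactivated libraries minus that of the wild-type libraries, a scale that makes changes of weakly expressed genes look smaller. The median over the 8 genes was 0.38, against 0.01 over all 12805 genes tested, of which 51.2% had a fold change above 0. With limma and Benjamini-Hochberg adjustment over all tested genes, 0 of the 8 passed at 0.05, and the share of all tested genes that passed was 0% in either direction. At an unadjusted limma p under 0.05, 442 genes passed (3.45%), with 1.69% of all tested genes higher, S1pr1 and Thbd among these. By the exact permutation test over 210 assignments, 2.3% of all tested genes were higher and 1.56% lower at an unadjusted p under 0.05, and S1pr1 and Thbd were among the higher ones. Genes whose levels were higher in every Shb-inactivated library than in any wild-type library made up 0.539% of those tested, S1pr1 being the one member among them, and genes lower in every such library 0.18%. Fold changes of all 16 pan-endothelial marker genes were above 0 (median 0.31). None was listed at 0 throughout. Their mean log2 level per library ran from 7.32 to 7.91 in Shb-inactivated libraries and from 7.20 to 7.48 in wild-type libraries. In these bulk samples, fewer cells of a type and less RNA per cell cannot be told apart.

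**Figure D1:**
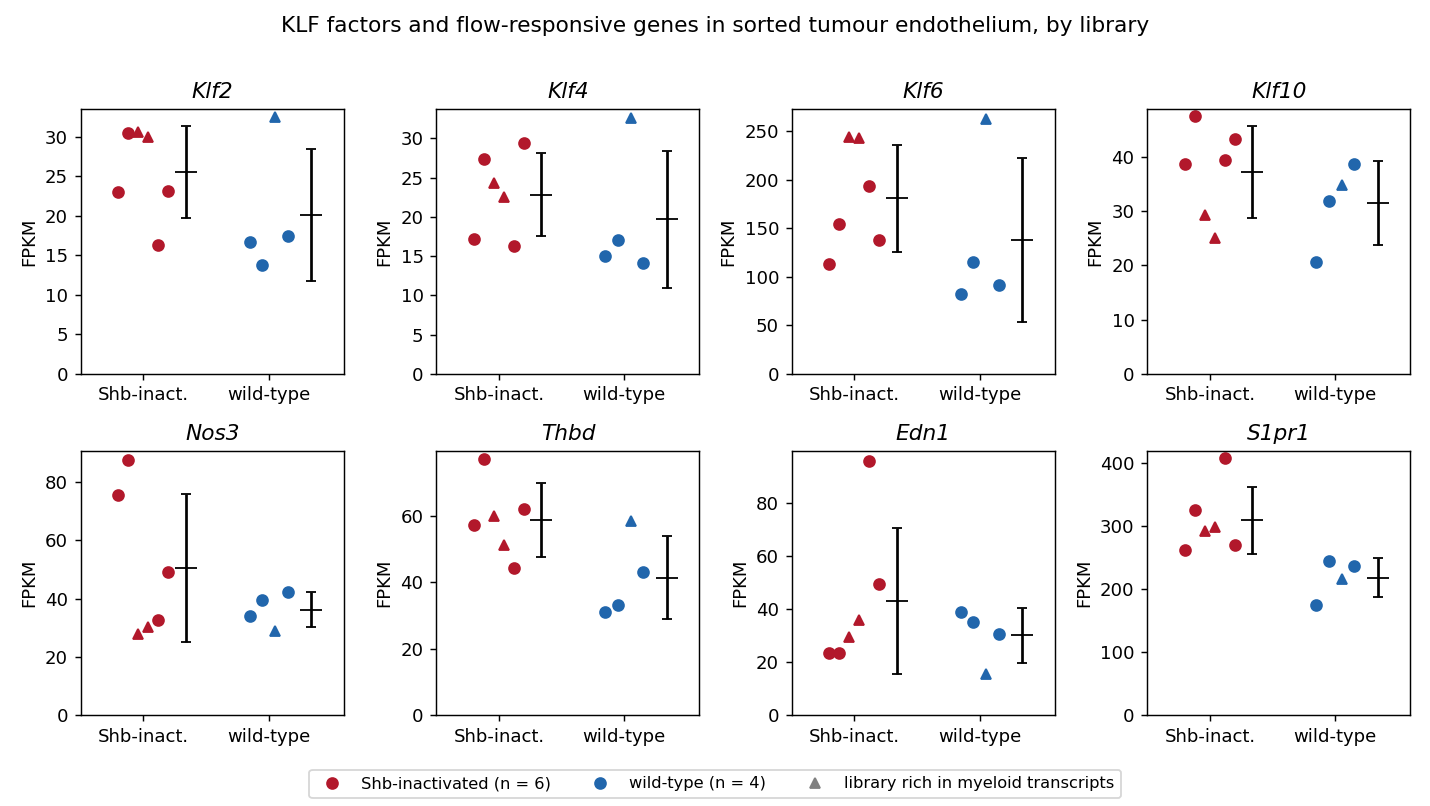
FPKM (linear axis from 0) of each of the 8 genes in every library, with Shb-inactivated libraries in red on the left of each panel and wild-type libraries in blue on the right; triangles are the 3 libraries rich in myeloid transcripts, and black bars are the mean ± SD. In S1pr1 the groups did not overlap, and in the other 7 genes they did.

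Klf2 is the best known flow-induced factor of endothelium and maps to chr8:72319033-72321656, plus strand (ENSMUSG00000055148.7, GRCm38). Its longest coding transcript has 3 exons. Klf4, which shares many endothelial targets with Klf2, maps to chr4:55527143-55532466, minus strand (ENSMUSG00000003032.8). The promoter table held 4 of the 8 genes, Klf2, Klf4, Klf6 and Edn1, each as 250 bases before to 50 bases after the RefSeq start. The windows of Klf2 and Klf4 are shown because MEF2 factors act on these genes in the flow cascade. Capitals mark matches, on either strand, to the MEF2 consensus, the CArG box bound by serum response factor, the AP-1 motif TGANTCA bound by Fos and Jun, the CRE motif TGACGTCA and the CACCC box bound by KLF factors. Sequences are from RefSeq on GRCm38.p6, read along the gene's strand, chr8:72318812-72319111 on the plus strand and chr4:55532426-55532725 on the minus strand.
Klf2: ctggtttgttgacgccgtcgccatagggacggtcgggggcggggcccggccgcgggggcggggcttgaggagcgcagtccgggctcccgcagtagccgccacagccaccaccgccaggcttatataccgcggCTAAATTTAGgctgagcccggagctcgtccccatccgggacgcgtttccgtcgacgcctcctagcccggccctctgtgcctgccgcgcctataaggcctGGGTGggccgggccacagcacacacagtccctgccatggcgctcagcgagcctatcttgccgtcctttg
Klf4: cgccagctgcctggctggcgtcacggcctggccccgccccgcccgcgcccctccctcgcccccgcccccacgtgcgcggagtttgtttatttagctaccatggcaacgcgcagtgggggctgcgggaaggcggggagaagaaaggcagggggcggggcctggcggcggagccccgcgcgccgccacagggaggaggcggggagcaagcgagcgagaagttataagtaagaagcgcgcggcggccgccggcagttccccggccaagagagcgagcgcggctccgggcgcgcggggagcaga

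The Klf2 window held 1 match to the MEF2 consensus, CTAAATTTAG, which begins 118 bases before the start and reads the same on both strands. It also held 1 CACCC box on the reverse strand, which did not overlap the first match. The Klf4 and Klf6 windows held no match to any of the 5 motifs. Of all 32851 promoters of this length, 3.19% held a MEF2 consensus, 1.63% a CArG box, 7.81% the AP-1 motif, 1.79% the CRE motif and 57.52% a CACCC box. The Klf2 and Klf4 windows were 69.3% and 74.3% G or C, against a median of 52.7% over all promoters. A match is a run of letters, and no binding was measured here.

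Klf2 was 16.3, 26.5 and 30.6 FPKM (lowest, median and highest of 6) in Shb-inactivated libraries. The values were 16.7, 13.8, 32.5 and 17.4 FPKM in wild-type replicates 1 to 4. The highest value of all belonged to wild-type replicate 3, and the groups overlapped. This gave a log2 fold change of 0.37 (SE 0.25, 95% interval -0.17 to 0.92; exact permutation p = 0.233, adjusted limma p = 0.989). Without the 3 libraries rich in myeloid transcripts Klf2 averaged 23.2 FPKM in 4 Shb-inactivated and 15.97 FPKM in 3 wild-type libraries, a log2 difference of 0.49 (exact permutation p = 0.114). Without wild-type replicate 3 alone it was 0.62 (exact permutation p = 0.0476, adjusted limma p = 0.855), and without wild-type replicate 2 alone 0.23 (exact permutation p = 0.452). With the Fos level as a covariate it was 0.22 (SE 0.165), and with the mean level of the pan-endothelial markers 0.64 (SE 0.29). Fos was highest in the 3 libraries rich in myeloid transcripts. A fit with Fos as a covariate, here and for Klf4 and Klf6 below, therefore cannot tell Fos from those transcripts.

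Klf4 was 16.3, 23.4 and 29.4 FPKM (lowest, median and highest of 6) in Shb-inactivated libraries. In wild-type replicates 1 to 4 it was 14.98, 17.0, 32.6 and 14.1 FPKM. Wild-type replicate 3 again lay above every other library, while wild-type replicates 1 and 4 lay below every inactivated library and wild-type replicate 2 inside their range. Klf4 had a log2 fold change of 0.26 (SE 0.25, 95% interval -0.29 to 0.81; exact permutation p = 0.381, adjusted limma p = 0.989). It was 0.52 without wild-type replicate 3 and 0.49 without all 3 myeloid-rich libraries (exact permutation p = 0.0476 and 0.171). In the other direction, it was 0.13 without wild-type replicate 4 (exact permutation p = 0.679) and 0.12 with Fos as a covariate (adjusted limma p = 0.939). With the pan-endothelial marker level as a covariate it was 0.44 (SE 0.31).

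Klf6, a factor induced early after vessel injury, maps to chr13:5861482-5870394, plus strand (ENSMUSG00000000078.7). It was 113, 174 and 244 FPKM (lowest, median and highest of 6) in Shb-inactivated libraries, against 81.8, 115, 262 and 91.8 FPKM in wild-type replicates 1 to 4. The 3 libraries rich in myeloid transcripts held the 3 highest values, 243 to 262 FPKM, and the other 7 ran from 81.8 to 193 FPKM. Shb-inactivated replicate 5, poor in myeloid transcripts, had that value of 193 FPKM. Klf6 differed by a log2 fold change of 0.50 (SE 0.34, 95% interval -0.25 to 1.25; exact permutation p = 0.224, adjusted limma p = 0.989). It was 0.86 without wild-type replicate 3 and 0.62 without all 3 libraries (exact permutation p = 0.0357 and 0.0857), but 0.30 without wild-type replicate 1 (exact permutation p = 0.512). Fitted with Fos as a covariate, it was 0.26 (SE 0.157), and with the pan-endothelial marker level 0.83 (SE 0.40). The 12 macrophage markers, none listed at 0 throughout, had a mean log2 level of 1.46 to 7.66 in Shb-inactivated and 1.34 to 8.23 in wild-type libraries, with all 12 fold changes below 0. Their part in the Klf6 levels was not tested.

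Klf10, induced early by TGF-beta, maps to chr15:38291463-38300706, minus strand (ENSMUSG00000037465.10). It was 24.9, 39.0 and 47.4 FPKM (lowest, median and highest of 6) in Shb-inactivated libraries and 20.6, 31.8, 34.8 and 38.7 FPKM in wild-type replicates 1 to 4. Unlike Klf6, it was lowest among the inactivated libraries in the pair rich in myeloid transcripts, at 29.2 and 24.9 FPKM. The log2 fold change was 0.24 (SE 0.22; exact permutation p = 0.338, adjusted limma p = 0.989). Without the 3 myeloid-rich libraries the groups no longer overlapped, with means of 42.2 FPKM in 4 Shb-inactivated and 30.3 FPKM in 3 wild-type libraries. That log2 difference of 0.50 had an exact permutation p of 0.0286, the smallest that 35 assignments can give, and an adjusted limma p of 0.84. The direction turned to -0.13 with the pan-endothelial score as a covariate, to -0.03 with the melanoma score and to -0.06 without 3 libraries low in small nucleolar RNAs (Shb-inactivated replicates 1 and 2 and wild-type replicate 1).

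**Figure D2:**
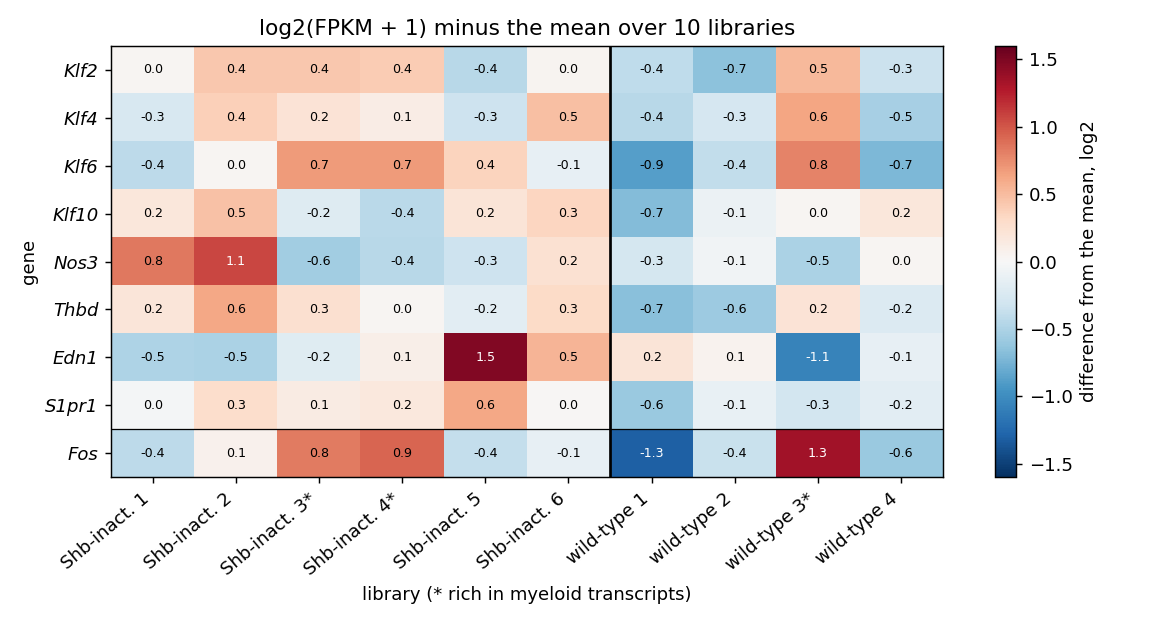
Colour and number in each cell give log2(FPKM + 1) of a gene (rows) in a library (columns) minus that gene's mean over the 10 libraries, with the Shb-inactivated libraries left of the black line and the wild-type libraries right of it; an asterisk marks the 3 libraries rich in myeloid transcripts. Nos3 was highest in Shb-inactivated replicates 1 and 2, Edn1 in Shb-inactivated replicate 5, and Klf6 and Fos in the 3 marked libraries.

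Nos3, encoding endothelial nitric oxide synthase, maps to chr5:24364810-24384474, plus strand (ENSMUSG00000028978.12), with 26 exons in its longest coding transcript. It was 27.8, 40.9 and 87.7 FPKM (lowest, median and highest of 6) in Shb-inactivated libraries and 33.95, 39.7, 28.9 and 42.2 FPKM in wild-type replicates 1 to 4. The 2 highest values, 75.5 and 87.7 FPKM, belonged to Shb-inactivated replicates 1 and 2, and no other library exceeded 49.3 FPKM. These 2 libraries and wild-type replicate 1, which had 33.95 FPKM, were the lowest in small nucleolar RNAs. Their part in the Nos3 level was not tested. The 3 libraries rich in myeloid transcripts had the 3 lowest values, 27.8 to 30.3 FPKM. The log2 fold change of 0.34 (SE 0.33; exact permutation p = 0.376, adjusted limma p = 0.989) was smaller than the spread. Leaving out Shb-inactivated replicate 2 alone gave 0.16 (exact permutation p = 0.675), and leaving out Shb-inactivated replicate 1 alone gave 0.20. It turned to -0.09 without the 3 libraries low in small nucleolar RNAs and to -0.20 with the pan-endothelial score as a covariate. The antisense gene Gm15587 and the gene Atg9b overlap Nos3 on the opposite strand, and whether the counting used strand is not given in the sources used here. Gm15587 was at most 2.82 FPKM and Atg9b at most 3.67 FPKM in any library.

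Thbd, encoding thrombomodulin, has 1 exon and maps to chr2:148404466-148408188, minus strand (ENSMUSG00000074743.4). It was 44.4, 58.7 and 77.2 FPKM (lowest, median and highest of 6) in Shb-inactivated libraries, against 31.2, 33.2, 58.5 and 43.1 FPKM in wild-type replicates 1 to 4. Wild-type replicate 3 reached into the inactivated range, and the other 3 wild-type libraries lay below every inactivated library. Its log2 fold change of 0.52 (SE 0.20, 95% interval 0.08 to 0.95) reached an exact permutation p of 0.0429 before adjustment, and the limma p adjusted over all genes was 0.989. Of the 10 fits that left out 1 library each, 2 kept an exact permutation p under 0.05, and the highest was 0.131 without wild-type replicate 1. Without the 3 myeloid-rich libraries the means were 60.3 and 35.8 FPKM in Shb-inactivated and wild-type libraries, a log2 difference of 0.72 (exact permutation p = 0.0571). Without the 3 libraries low in small nucleolar RNAs it was 0.30 (exact permutation p = 0.229).

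Edn1, which flow represses through KLF factors, maps to chr13:42301476-42307990, plus strand (ENSMUSG00000021367.8). Its promoter window, chr13:42301226-42301525 on the plus strand, is shown because it differed from the 3 KLF windows in holding 3 CACCC boxes, all on the reverse strand and in capitals.
Edn1: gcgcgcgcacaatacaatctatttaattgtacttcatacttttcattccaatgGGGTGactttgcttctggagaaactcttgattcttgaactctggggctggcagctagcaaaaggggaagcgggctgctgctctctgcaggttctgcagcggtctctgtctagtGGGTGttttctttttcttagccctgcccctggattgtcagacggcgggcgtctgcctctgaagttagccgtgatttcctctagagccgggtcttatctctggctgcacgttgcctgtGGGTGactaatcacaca

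That window held no exact match to the other 4 motifs and was 51.3% G or C. Of all promoters 57.52% held at least 1 CACCC box, and the share with 3 was not counted. Sites that differ from these patterns, or lie outside the window, were not sought. Edn1 was 23.5, 32.7 and 95.7 FPKM (lowest, median and highest of 6) in Shb-inactivated libraries and 39.0, 35.2, 15.5 and 30.8 FPKM in wild-type replicates 1 to 4. Shb-inactivated replicate 5 was far above the rest, at 95.7 FPKM, with the next library at 49.7 FPKM, and wild-type replicate 3 was lowest. Edn1 varied most between libraries, by 6.17-fold from its lowest to its highest. The log2 fold change was 0.39 (SE 0.40; exact permutation p = 0.438, adjusted limma p = 0.989). It was 0.11 without wild-type replicate 3, 0.21 without the 3 myeloid-rich libraries and 0.86 without the 3 libraries low in small nucleolar RNAs. The antisense gene Gm47118 overlaps Edn1 and is not analysed here.

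S1pr1 encodes the receptor for sphingosine-1-phosphate that stabilises endothelial junctions and takes part in the response to flow. S1pr1 maps to chr3:115710433-115715072, minus strand (ENSMUSG00000045092.8), with 2 exons. It was 261, 295 and 408 FPKM (lowest, median and highest of 6) in Shb-inactivated libraries, against 176, 244, 216 and 237 FPKM in wild-type replicates 1 to 4. Every inactivated library lay above every wild-type library, with a gap between 261 and 244 FPKM at the nearest point. The ratio of means was 1.42, which on the log2 scale was a difference of 0.49 (SE 0.15, 95% interval 0.16 to 0.83). The exact permutation p was 0.00952, where 0.00476 is the smallest that 210 assignments can give, and it ranked 36 of 12805 genes by unadjusted limma p. The adjusted limma p was 0.989, so the difference did not pass across all genes. In the 10 fits without 1 library each, the log2 fold change was 0.39 to 0.55 and the exact permutation p 0.00794 to 0.0357. It was 0.52 without the 3 myeloid-rich libraries and 0.43 without the 3 libraries low in small nucleolar RNAs (exact permutation p = 0.0571 each, 0.0286 being the smallest that 35 assignments can give). Relative to the pan-endothelial markers S1pr1 was less separated. The log2 level minus the pan-endothelial score differed by 0.19 between the groups (exact permutation p = 0.238), and with that score as a covariate the log2 fold change was 0.33 (SE 0.18). Among the 16 pan-endothelial markers, Pecam1 and Ptprb, the second chosen after its values were seen, also lay higher in every inactivated library than in any wild-type library.

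In the 7 libraries left without the myeloid-rich ones, Klf10, Thbd and S1pr1 did not overlap between 4 Shb-inactivated and 3 wild-type libraries, against 4.4% of all tested genes. The pan-endothelial score did not overlap either, at 7.60 to 7.91 in Shb-inactivated and 7.20 to 7.48 in wild-type libraries. With that score as a covariate over all 10 libraries, the log2 fold changes were -0.13 for Klf10, 0.50 for Thbd and 0.33 for S1pr1. When the score was subtracted from each library's log2 level instead, the difference was -0.07 for Klf10 and 0.21 for Thbd (exact permutation p = 0.657 and 0.414), against 0.19 for S1pr1. For the remaining 5 genes that difference lay between -0.05 for Klf4 and 0.19 for Klf6.

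**Figure D3:**
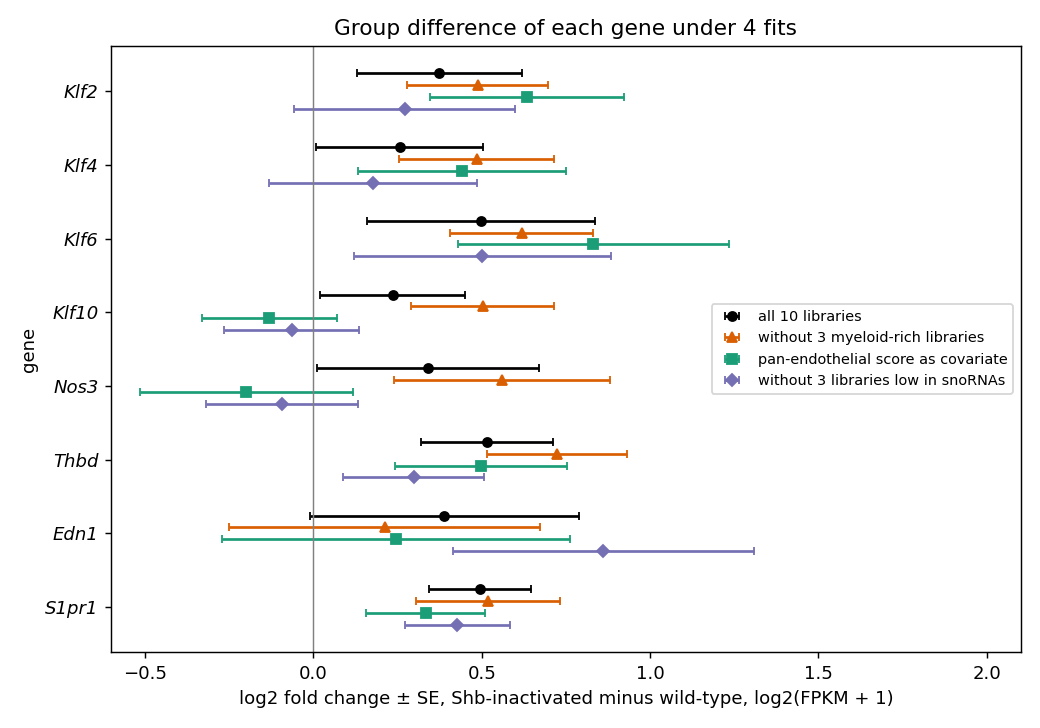
Log2 fold change, Shb-inactivated minus wild-type, with its standard error (horizontal bars) for each of the 8 genes under 4 limma fits, marked by colour and symbol. All 8 were above 0 with all 10 libraries and without the 3 myeloid-rich libraries, while Klf10 and Nos3 were below 0 with the pan-endothelial score as a covariate and without the 3 libraries low in small nucleolar RNAs.

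Fos encodes a subunit of the AP-1 transcription factor and is switched on within minutes of stimulation. It was 191, 251 and 491 FPKM (lowest, median and highest of 6) in Shb-inactivated libraries and 103, 200.4, 651 and 170 FPKM in wild-type replicates 1 to 4. Its level fell into separate clusters, with 456 to 651 FPKM in the 3 libraries rich in myeloid transcripts and 103 to 269 FPKM in the other 7. A correlation was therefore computed within the 7 libraries, and none over all 10. The log2 fold change of Fos was 0.37 (exact permutation p = 0.505, adjusted limma p = 0.989), and it was 0.01 without wild-type replicate 1 and 0.90 without wild-type replicate 3.

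Within these 7 libraries, 7 of the 8 genes had a coefficient above 0 with Fos, with a median of 0.721 over the 8 and 0.0809 over all genes, and the relation did not pass the test across all genes for any of them. The correlation coefficient of the log2 levels was above 0 for 54.3% of all 12804 genes. Its median was 0.655 over the 16 pan-endothelial markers and 0.659 over the other tested immediate early genes. Over the tested other KLF genes it was 0.211, and over the macrophage markers -0.442. At an unadjusted exact permutation p under 0.05, 3.56% of all genes had a coefficient above 0 and 2.36% one below 0, and Klf10 and Thbd were the 2 members among those above 0. After adjustment over all 12804 genes, 0 members passed, and the share of all genes that passed was 0%. Klf10 had a Pearson r of 0.924 and a Spearman rho of 0.786 with Fos (exact permutation p = 0.00853 and 0.048, adjusted 0.572 and 1.0). For Thbd r was 0.78 and rho 0.75 (exact permutation p = 0.0264 and 0.0663, adjusted 0.572 and 1.0).

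For Klf4 r was 0.718 and rho 0.821 (exact permutation p = 0.0609 and 0.0341, adjusted 0.572 and 1.0). Klf6 and S1pr1 both had an r of 0.724, with rho of 0.786 and 0.714 (exact permutation p of r = 0.0587 and 0.0738, of rho = 0.048 and 0.0881). Nos3 had an r of 0.603 and a rho of 0.5, and Klf2 an r of 0.561 and a rho of 0.429 (exact permutation p of r = 0.148 and 0.176, of rho = 0.267 and 0.354). Edn1 stood alone below 0, with an r of -0.0933 and a rho of -0.143 (exact permutation p = 0.836 and 0.783). The adjusted p of r was 0.572 for these genes and 0.931 for Edn1, and the adjusted p of rho was 1.0 for each.

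Wild-type replicate 1 and Shb-inactivated replicate 2 were farthest from the median Fos level. Without them r was 0.3 for Klf10, 0.426 for Thbd, 0.482 for Klf6, 0.346 for Klf2, 0.156 for S1pr1, 0.0619 for Nos3 and 0.337 for Edn1. This leaves 5 libraries over a narrower range of Fos. With Shb-inactivated replicate 2 alone left out, r was 0.906 for Klf10 and 0.679 for Thbd, and with wild-type replicate 1 alone left out 0.658 and 0.724. For S1pr1 these values were 0.684 and 0.334. Klf4 had an r of 0.939 without both (exact permutation p = 0.0333 over 5 libraries). Wild-type replicate 1 had the highest melanoma score of all 10 libraries, 6.12, and the lowest pan-endothelial score, 7.20. The part of these 2 scores in the coefficients was not tested. Fos itself differed by 0.53 on the log2 scale between the groups within the 7 libraries (exact permutation p = 0.114). With values centred within each group, r was 0.863 for Klf10, 0.566 for Thbd, 0.514 for Klf4, 0.477 for S1pr1, 0.457 for Klf6, 0.388 for Nos3, 0.197 for Klf2 and -0.268 for Edn1. Endothelial markers also had coefficients above 0 with Fos in these libraries, with r of 0.755 for Pecam1 and 0.666 for Cdh5 (exact permutation p = 0.0752 and 0.0756), and all 16 pan-endothelial markers had an r above 0. Within the myeloid-rich libraries, where Fos was highest, Klf2, Klf4 and Klf6 were at 29.9 to 32.5, 22.5 to 32.6 and 243 to 262 FPKM, while Nos3, at 27.8 to 30.3 FPKM, lay below the 7 others.

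**Figure D4:**
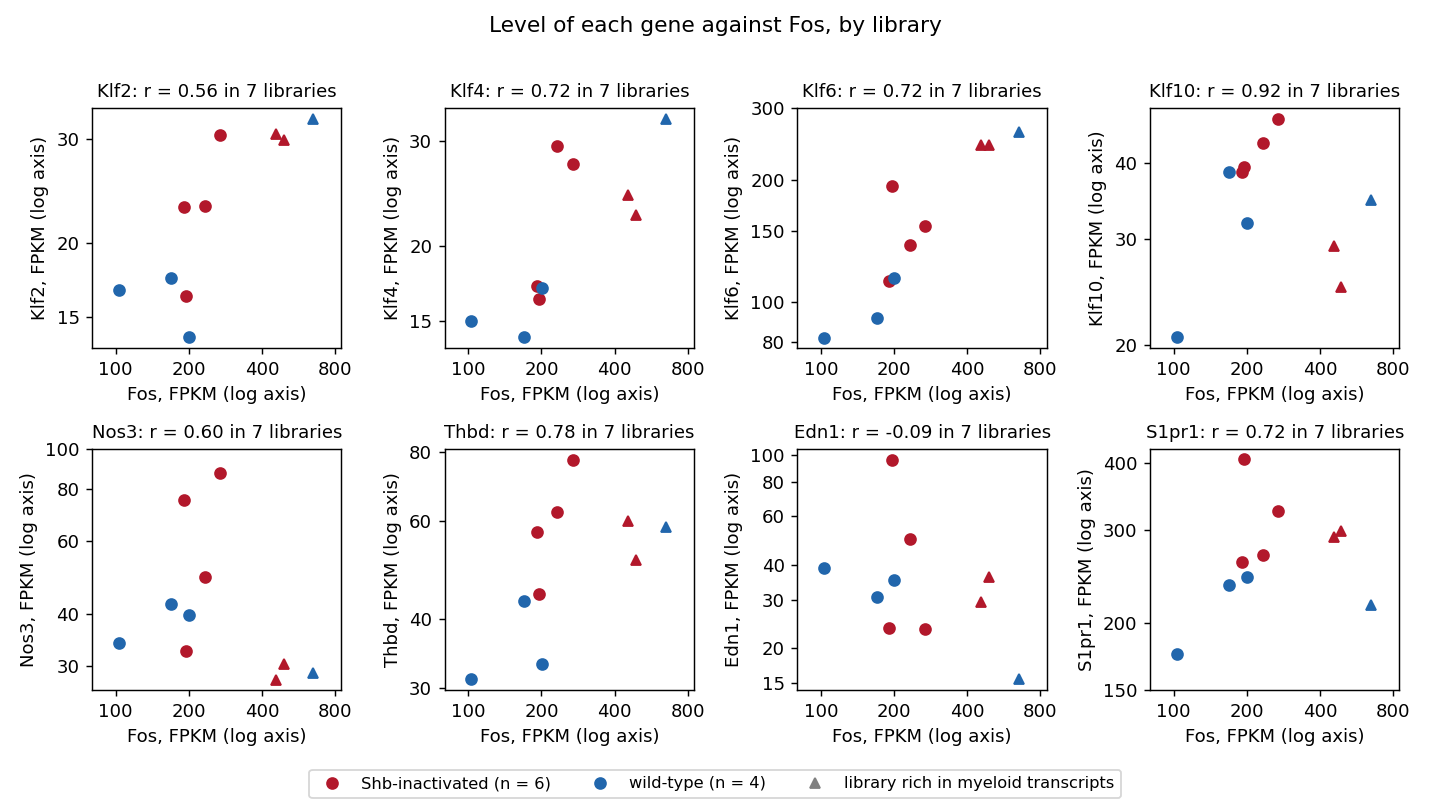
FPKM of each gene (vertical log axis) against FPKM of Fos (horizontal log axis), 1 point per library, with Shb-inactivated libraries in red and wild-type libraries in blue; triangles are the 3 libraries rich in myeloid transcripts, and r in each title is over the 7 libraries shown as circles. Among the circles r was 0.924 for Klf10 and -0.0933 for Edn1, and in the triangles Nos3 lay below all 7 circles while Klf6 lay above them.

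The 8 genes did not vary as 1 block. Within the 7 libraries Klf2 ran with Thbd (r = 0.934) and Nos3 (r = 0.88), and Klf6 ran with S1pr1 (r = 0.957). Klf2 and Klf6 had an r of 0.298, and Nos3 and Edn1 ran opposite to each other (r = -0.724). These coefficients describe the same 7 libraries, which share differences in endothelial and other transcripts, and no test was attached to them. Over all 10 libraries and 9088 genes with a mean of at least 5 FPKM, the genes most like each member in log2 level were ranked by Pearson r. For Klf2 they were B4galt1 (r = 0.944), Uvrag (0.94) and Jun (0.93), a partner of Fos in AP-1. For Klf4 they were Fosb (0.888), Map3k8 (0.886) and Jun (0.863), so that AP-1 subunits stood among the 3 most similar genes of both factors. These coefficients span the 3 myeloid-rich libraries, where Jun averaged 95.7 FPKM against 63.4 FPKM in the other 7. Klf2 averaged 31.0 against 20.1 FPKM and Klf4 26.5 against 19.5 FPKM. Within the other 7 libraries r with Jun was 0.865 for both factors. The part of the myeloid-rich libraries in the ranking was not tested. Klf6 was most like Vwa5a (0.974), Entpd1 (0.968), encoding the ectonucleotidase CD39, and Nfe2l2 (0.968), encoding the oxidative stress factor NRF2. Nos3 was most like Gata2 (0.979), Rasip1 (0.975) and Arhgef15 (0.974), all known from endothelium. Edn1 was most like Nox4 (0.959), an oxidase that makes hydrogen peroxide, Wdfy1 (0.939) and Senp6 (0.937). S1pr1 was most like Adipor1 (0.972), Rhoj (0.969) and Fam120b (0.966). Klf10 was most like Clp1 (0.943), Ly6c1 (0.927) and Mtmr11 (0.92), and Thbd was most like Supt7l (0.889), Senp3 (0.887) and Olfml2a (0.886). Within the 7 libraries these 24 coefficients lay between 0.825 and 0.983. The ranking had used the same 7 among its 10, so this is no separate check.

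Most other genes of the flow pathway also had fold changes above 0, and none passed limma. Over all tested genes the share above 0 was 51.2%. Of 18 genes of flow sensing and the MEK5, ERK5 and MEF2 cascade, all tested, 15 had a fold change above 0 and 0 passed limma, with a median of 0.17. Besides Pecam1 and Cdh5, Mef2a, encoding one of the MEF2 factors and named after its values were seen, had an exact permutation p under 0.05 before adjustment. At that level 2.3% of all tested genes were higher. Pecam1, Cdh5 and Kdr of this list are also among the pan-endothelial markers. Mef2a was 61.4 ± 4.53 FPKM (SD, n = 6) in Shb-inactivated and 49.6 ± 10.5 FPKM (SD, n = 4) in wild-type libraries (exact permutation p = 0.0238, adjusted limma p = 0.989). Of 30 other genes that flow induces, 28 were tested, 25 had a fold change above 0 and 0 passed, with a median of 0.22. Their most abundant members were the water channel Aqp1, at 932 ± 351 FPKM in Shb-inactivated and 615 ± 406 FPKM in wild-type libraries, and the caveolar protein gene Cav1, at 838 ± 216 and 637 ± 187 FPKM (SD, n = 6 and n = 4). Of 17 endothelial genes that are repressed by flow or inflammatory, 15 were tested, 12 had a fold change above 0 and 0 passed, with a median of 0.26. The medians of both lists were above 0. Thbs1 was 506 ± 209 and 469 ± 118 FPKM, and Ednrb, an endothelin receptor, was 460.5 ± 113 and 347 ± 96.5 FPKM in Shb-inactivated and wild-type libraries (SD, n = 6 and n = 4).

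Of 13 further KLF family members 12 were in the files and 8 were tested, of which 7 had a fold change above 0 and 0 passed limma, with a median of 0.14. Klf3, a repressor of the family, was 26.9 ± 2.84 FPKM (SD, n = 6) in Shb-inactivated and 21.4 ± 2.15 FPKM (SD, n = 4) in wild-type libraries, with a log2 fold change of 0.32 (SE 0.11; exact permutation p = 0.00952, adjusted limma p = 0.989). Klf13 was 18.5 ± 3.26 and 16.6 ± 3.51 FPKM (exact permutation p = 0.376). At an unadjusted exact permutation p under 0.05, 2.3% of all tested genes were higher, Klf3 among these. Of 26 immediate early genes 25 were tested, 19 had a fold change above 0 and 0 passed, with a median of 0.14. Dusp1, a phosphatase gene of this kind, was 185 ± 52.5 FPKM in Shb-inactivated and 159 ± 126 FPKM in wild-type libraries (SD, n = 6 and n = 4). Of the remaining marker lists, melanoma genes had all 10 fold changes below 0 and a mean log2 level of 1.07 to 4.52 in Shb-inactivated and 2.83 to 6.12 in wild-type libraries. Pericyte and smooth muscle genes had all 9 above 0, at 2.86 to 4.98 and 2.86 to 4.26. For neutrophil (2 tested), T and NK cell (5 tested), B cell (7 tested) and fibroblast markers (4 tested) every fold change was below 0, and for platelet markers 5 of 6 were. No gene of these lists passed limma. The platelet gene Ppbp was lower in every Shb-inactivated library than in any wild-type one, like 0.18% of tested genes (exact permutation p = 0.0238). Abcc9, of the pericyte list, was higher in Shb-inactivated libraries (exact permutation p = 0.0429), as were 2.3% of tested genes at an unadjusted p under 0.05. Both were named after their values were seen. The part of these other cells in the results was not tested.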

How the data were processed

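Each deposited table lists FPKM by gene symbol for 1 library. TopHat2 2.1.1, Cufflinks 2.2.1 and the build GRCm38 are named in the submitters' processing notes; annotation and strand setting were not given in the sources used here. Per the labels' protocols, libraries were stranded total RNA after ribosomal RNA removal. No counts were given, so depth and counting error are unknown.

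From the authors' FPKM, log2(FPKM + 1) was computed, and 12805 genes reaching 1 FPKM in 4 or more of 10 libraries were tested. The group difference was fitted with limma 3.58.1 (R 4.3.3) with a mean-variance trend, two-sided, with Benjamini-Hochberg adjustment and a threshold of 0.05, and tested on simulated data. Single genes had two-sided exact permutation tests over 210 assignments. Pearson and Spearman coefficients with Fos had two-sided exact tests over 5040 orders of 7 libraries. This replaced a planned test over 10 libraries because Fos fell into separate clusters. For that case the design provided for giving values in place of a pooled coefficient. The test within 7 libraries was added after the clusters were seen. A score is the mean log2(FPKM + 1) of a list. Named genes are the 8 members, Fos, Shb, the sort markers and the 3 genes most like each member. From the KLF, flow and immediate early lists, the 2 most abundant genes are also named. Members and lists were chosen with earlier results of these data known. Gene positions are from GENCODE vM21 and promoters from RefSeq, both on GRCm38. Alternatives were other pseudocounts, filters, covariates and left-out libraries.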

Additional observations from a re-analysis of the deposited data

Results flagged for a closer look

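In 42 groups of libraries checked, 7 held 1 library far from the others by Dixon's criterion at the 95% level, and chance flags about 5% of such groups. In Shb-inactivated replicate 5, Edn1 was 95.7 FPKM, Pecam1 1237 FPKM and Thbs1 911 FPKM, each the highest of 6. In wild-type replicate 3, Klf4 was 32.6 FPKM, Klf3 24.6 FPKM, Dusp1 348 FPKM and Itgam 109 FPKM, each the highest of 4. Wild-type replicate 3 is one of the libraries rich in myeloid transcripts, with a macrophage score of 8.23, and the part of these transcripts in the Klf3, Klf4 and Dusp1 levels was not tested.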

How the results depend on the processing

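Of 24 alternatives for the group difference, 23 called 0 genes, as reported, and Fos as a covariate called 1 gene, S100a4, named after its value was seen, which was lower; the cause was not tested. Klf10 turned to -0.0308 when the melanoma score was a covariate, -0.13 with the pan-endothelial one and -0.0644 without the 3 libraries low in small nucleolar RNAs. Nos3 turned to -0.20 with the pan-endothelial score and -0.0928 without those 3 libraries. Klf2, Klf4, Klf6, Thbd and S1pr1 kept their direction under all 24, S1pr1 between 0.33 and 0.55. Subtracting the pan-endothelial score, which is not among the 24, turned Klf4 to -0.05 and left Klf2, Klf6, Thbd and S1pr1 above 0. With 1 library left out, Klf10 was 0.05 without wild-type replicate 1. All 17 alternatives for the relation to Fos called 0 genes. The r of Edn1 turned to 0.337 without the 2 libraries farthest from the median Fos level and, with 1 library left out, ran from -0.264 without Shb-inactivated replicate 5 to 0.17 without Shb-inactivated replicate 2. Of the same-numbered pairs, 2 deviated together and 2 did not (r = 0.436, -0.319, 0.707 and -0.546), and pairs with different numbers reached 0.752, so the numbers were not taken to pair the libraries. With the replicate block 0 genes were called, and Edn1 turned to -0.0389. A relation within the 6 Shb-inactivated libraries was not run, since 4 of them lie outside the Fos-high cluster. The fit with library weights stopped before its convergence tolerance. Depth is unknown, so counting error of low genes such as Shb could not be given.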

Other observations

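Klf9 and Aqp1 were named after their values were seen. Klf9, a family member that responds to glucocorticoids, was 11.04 and 11.03 FPKM in Shb-inactivated replicates 3 and 4 and 9.68 FPKM in wild-type replicate 3, the libraries rich in myeloid transcripts, and its highest value elsewhere was 9.98 FPKM in Shb-inactivated replicate 5. Aqp1 was 1195, 1369 and 1211 FPKM in the same 3 libraries and at most 1170.3 FPKM in the other 7. These libraries are not groups of the study, and no test was made.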
